A study of Homo sapiens with 40 samples.

Results

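Dexamethasone-treated A549 cells depleted of CoCoA were set directly against dexamethasone-treated A549 cells depleted of CCAR2. The 8 arrays of these groups were taken by the siRNA and treatment that their labels give, 4 arrays each, out of 40 arrays in the series. A549 is an established human lung carcinoma line. The siCoCoA and siCCAR2 cells had been transfected with siRNA against CoCoA (gene CALCOCO1) or CCAR2, moved to hormone-free medium 2 days later, and exposed on the next day to dexamethasone (dex), a synthetic glucocorticoid, at 100 nM for 6 h. Ethanol-treated siCoCoA and siCCAR2 cells (4 arrays each) are set beside them only where named. So are cells with a nonspecific siRNA (siNS, 6 arrays in dex and 6 in ethanol). All 40 arrays, those with siRNA against CCAR1 or ZNF282 included, entered the estimate of spread behind each SE and p-value. The ethanol arrays carry 0 h in their titles, whereas the protocol gives ethanol for the same 6 h. The labels do not say that the arrays of a group came from separate cultures, so p-values measure the spread between arrays, which may be partly technical. Several siRNAs per gene, or a rescue, are not described in the labels.

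The glucocorticoid receptor (GR, gene NR3C1) is a nuclear receptor that binds glucocorticoids and then raises or lowers the transcription of its target genes with the help of coregulator proteins. CoCoA is a coiled-coil coactivator that works through p160 coactivators, and its gene product also acts as a receptor for selective autophagy of the endoplasmic reticulum. CCAR2, also called DBC1, is a nuclear protein that binds nuclear receptors, inhibits the deacetylase SIRT1 and takes part in transcript elongation and splicing. The comparison asks how far cells lacking one of these coregulators differ from cells lacking the other under the same hormone, with a transfected, depleted culture on both sides.

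Values are log2 normalized intensities, differences are siCoCoA minus siCCAR2 on the log2 scale with the standard error (SE) of a limma fit, and each gene is represented by its brightest probe. A gene was called at a Benjamini-Hochberg adjusted p under 0.05 over the 10608 genes tested. A group mean under 5 is described as near background. The 8 arrays had medians of 4.68 to 4.69, and their pairwise correlations over all probes ran from 0.987 to 0.993 within siCoCoA, from 0.987 to 0.991 within siCCAR2 and from 0.980 to 0.987 between the groups. The first principal component of the 8 arrays held 45.1% of the variance and separated the groups. Of 13 A549 epithelial markers on the array, 12 were above background in siCoCoA dex and 12 in siCCAR2 dex, whereas all 9 endothelial markers were near background in both, with the highest mean at 4.69 in siCoCoA dex and 4.73 in siCCAR2 dex. Of 10 leukocyte markers on the array, 2 were above background in siCoCoA dex and 3 in siCCAR2 dex, and of 10 fibroblast markers 4 and 3 were. Precision is limited by the 4 arrays of a group, and the median SE of a difference was 0.16.

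Each siRNA left its own transcript lower than it was in the other depletion. CALCOCO1 measured 4.48, 4.43, 4.54 and 4.56 in siCoCoA dex, against 5.93, 5.57, 5.53 and 5.79 in siCCAR2 dex. All siCoCoA arrays lay near background, so the difference of −1.20 ± 0.15 (limma adjusted p = 1.81e-07) is a value against background signal. CCAR2 measured 7.88, 7.99, 8.04 and 7.23 in siCoCoA dex, against 6.68, 6.63, 6.63 and 6.40 in siCCAR2 dex. The groups did not overlap and differed by 1.20 ± 0.16 (limma adjusted p = 4.35e-07). The siNS dex arrays, at 8.59 to 9.14, were higher than both, so siCoCoA cells also held less CCAR2 signal than siNS cells. The other coregulators targeted in the series, CCAR1 (0.28 ± 0.21, adjusted p = 0.383) and ZNF282 (0.37 ± 0.23, adjusted p = 0.269), were not called, and their arrays overlapped. The receptor itself, NR3C1, averaged 6.41 ± 0.33 in siCoCoA dex and 6.54 ± 0.01 in siCCAR2 dex (SD, n = 4 each), a difference of −0.13 ± 0.18 (adjusted p = 0.676). A dimmer NR3C1 probe gave −0.43.

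Across the transcriptome, 2346 genes (22.1% of those tested) were called, 1159 higher (10.9%) and 1187 lower (11.2%) in siCoCoA dex. The median difference of all genes was −0.0051, and 2326 genes (21.9%) had arrays that did not overlap between the groups. Of the calls, 1160 were under 0.58 on the log2 scale. At 2-fold or more, calls leaned towards siCoCoA, with 158 genes higher (1.49%) and 95 lower (0.896%), and in 246 of these 253 genes the arrays did not overlap.

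The largest rises in siCoCoA dex held several secreted and metabolic genes. HABP2, a secreted hyaluronan-binding serine protease, measured 6.87, 6.54, 6.83 and 6.87 in siCoCoA dex, against 4.55, 4.95, 4.43 and 4.30 in siCCAR2 dex. The siCCAR2 arrays were all near background and the siNS dex arrays reached 4.99 at most, so only siCoCoA cells among these held signal above the line, and the difference of 2.22 ± 0.18 (adjusted p = 1.70e-11) is a value against background. SPATA17 stood alike, at 2.03 ± 0.15 with the siCCAR2 group near background. C5, a complement component, measured 11.08, 10.93, 11.22 and 11.02 in siCoCoA dex, against 9.15, 9.41, 9.43 and 9.29 in siCCAR2 dex. It was 3.34-fold higher (1.74 ± 0.12, adjusted p = 6.84e-13), and the siNS dex arrays, at 9.56 to 10.13, lay between the groups without touching either. UBL3, a membrane-anchored ubiquitin-like protein, was higher by 1.92 ± 0.18 and CSGALNACT1, which starts chondroitin sulfate chains, by 1.88 ± 0.15. Among enzymes of small-molecule breakdown, PRODH, the proline dehydrogenase of mitochondria, rose by 1.85 ± 0.25, HGD, the homogentisate dioxygenase of tyrosine breakdown, by 1.73 ± 0.22 and BCO1, which cleaves beta-carotene, by 1.81 ± 0.18. The other members of the 12 largest rises were CEMIP (1.87 ± 0.22), which depolymerises hyaluronan, the orphan transporter SLC22A23 (1.78 ± 0.13, but 0.81 by a dimmer probe), the kinase CAMK1D (1.77 ± 0.17, with other probes at 1.34 and 0.71) and VAV3 (1.74 ± 0.15).

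The largest falls began with SLC2A3, the high-affinity glucose transporter GLUT3. It measured 9.37, 9.60, 9.81 and 9.96 in siCoCoA dex, against 11.32, 11.50, 12.005 and 11.84 in siCCAR2 dex, and siCoCoA cells held 25.3% of the siCCAR2 level (−1.98 ± 0.21, adjusted p = 7.40e-09). The siNS dex arrays, at 9.52 to 10.33, overlapped those of siCoCoA, and the siCCAR2 arrays stood apart above both. SCML1, a Polycomb-related protein, measured 7.14, 6.78, 6.76 and 6.67 in siCoCoA dex, against 8.80, 8.77, 8.47 and 8.64 in siCCAR2 dex (−1.83 ± 0.13, adjusted p = 5.45e-13). Here siNS dex arrays, at 7.80 to 8.29, lay between the groups and clear of both. DCP2, the catalytic subunit of the mRNA decapping complex, was lower by −1.67 ± 0.12, and CBFB, the partner of RUNX transcription factors, by −1.65 ± 0.15. HAS2, which makes hyaluronan, was lower by −1.80 ± 0.27, with a dimmer probe at −0.80. The keratin KRT80 (−1.81 ± 0.22), the actin regulator RFLNB (−1.61 ± 0.25) and the adhesion molecule NECTIN3 (−1.57 ± 0.15) were also lower. SCARNA8, a small Cajal body RNA, fell by 1.48 into background in siCoCoA dex, and RDM1 was lower by −1.47 ± 0.22 while its dimmer probe gave −0.22. EDN2 and TUBA3E complete the 12 and are described with the hormone response. All 24 genes of the largest rises and falls kept their calls under every alternative tried in dex.

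**Figure D1:**
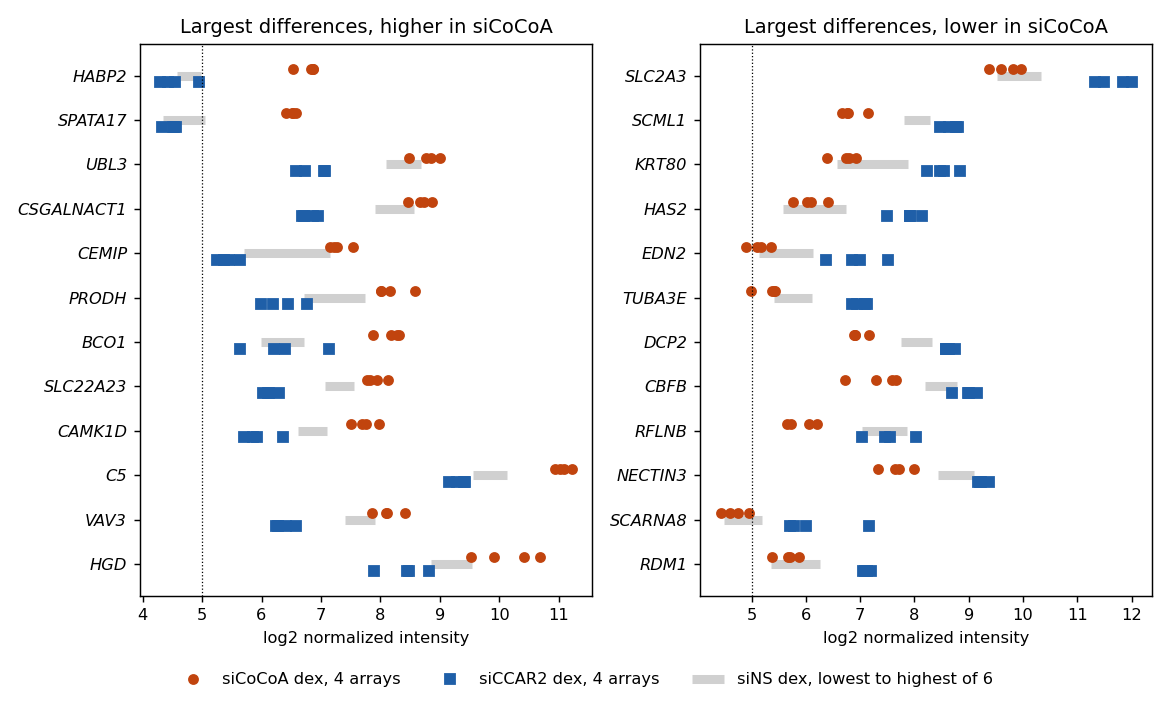
Log2 normalized intensity (horizontal axis) of the 12 genes with the largest called rises (left) and falls (right), 1 gene a row; circles are the 4 siCoCoA dex arrays, squares the 4 siCCAR2 dex arrays, grey bars span the 6 siNS dex arrays and the dotted line marks 5, the background line. C5 in siNS dex (9.56 to 10.13) lies between the groups, while SLC2A3 in siNS dex (9.52 to 10.33) overlaps siCoCoA.

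Most of what separated the depletions in dex also separated them without hormone. In ethanol 2214 genes (20.9%) were called, 1299 higher (12.2%) and 915 lower (8.63%) in siCoCoA. Of the dex calls, 1380 (58.8% of dex calls, 62.3% of ethanol calls) were called in the same direction in ethanol, 783 higher and 597 lower, and 0 were called in opposite directions. The sign was the same in ethanol for 2266 of the 2346 dex calls (96.6%), and for 252 of the 253 calls of 2-fold or more, of which 227 were also called in ethanol. Across the 10608 genes the dex and ethanol differences correlated with a Pearson r of 0.776 and a Spearman coefficient of 0.712. This is a description over genes, which are not independent replicates. The arrays differ, but arrays with the same number deviated together between dex and ethanol (0.127 to 0.415 in siCoCoA, 0.164 to 0.470 in siCCAR2), so the contrasts are not fully separate measurements. HABP2 (2.22 in dex, 2.22 in ethanol), C5 (1.74 and 1.71) and SCML1 (−1.83 and −1.78) were almost the same under both treatments.

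**Figure D2:**
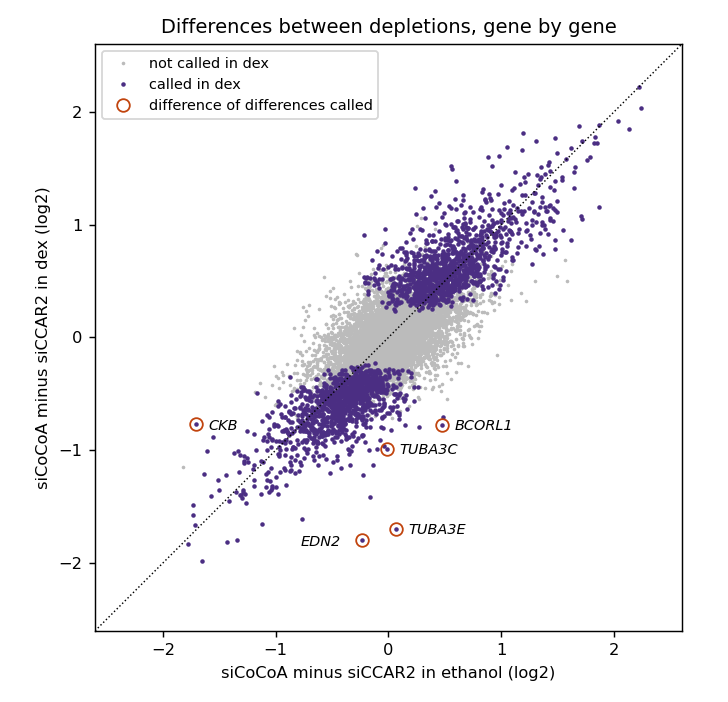
Difference between siCoCoA and siCCAR2 cells in dex (vertical axis, log2) against that in ethanol (horizontal axis, log2), 1 point a gene for 10608 genes; dark points were called in dex, rings mark the 5 genes whose difference itself differed between treatments, and the dotted line marks equality. The points follow the line (Pearson r = 0.776), and TUBA3E (−1.70 in dex, 0.07 in ethanol) and EDN2 (−1.80 in dex, −0.23 in ethanol) lie off it.

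The test of the difference itself, the dex response of siCoCoA cells minus that of siCCAR2 cells, called 5 genes (0.0471% of those tested), 1 higher (0.00943%) and 4 lower (0.0377%). An unadjusted p under 0.05 was reached by 636 genes. With the replicate number as a block the count was 14, with 3 higher and 11 lower, and leaving out single arrays gave 1 to 7. TUBA3E, an alpha-tubulin, kept its call in every alternative. It measured 5.38, 5.00, 5.41 and 5.43 in siCoCoA dex, against 6.84, 7.13, 7.09 and 6.94 in siCCAR2 dex, while the ethanol groups were near background with means of 4.43 in siCoCoA and 4.36 in siCCAR2. Dex raised it by 0.87 in siCoCoA and by 2.64 in siCCAR2 cells, against 1.37 in siNS cells, and the responses differed by −1.76 (adjusted p = 2.1e-06). The near-identical TUBA3C, whose transcripts a probe may not tell apart from those of TUBA3E, followed at −0.98 (adjusted p = 0.045), with its siCoCoA dex group and both ethanol groups near background.

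EDN2, the vasoconstrictor peptide endothelin 2, measured 5.18, 5.35, 5.10 and 4.89 in siCoCoA dex, against 6.37, 7.51, 6.99 and 6.85 in siCCAR2 dex. The groups did not overlap in dex (−1.80 ± 0.23, adjusted p = 1.81e-07), and both ethanol groups averaged under 5. Its dex response was 0.40 in siCoCoA cells, 1.96 in siCCAR2 cells and 0.89 in siNS cells, and the depletions differed by −1.57 (adjusted p = 0.045). BCORL1, a transcriptional corepressor, had dex responses of −0.52 in siCoCoA and 0.72 in siCCAR2 cells, with the siCoCoA dex and siCCAR2 ethanol groups near background. CKB, the brain-type creatine kinase, went the other way: dex raised it by 1.79 in siCoCoA and by 0.85 in siCCAR2 cells (difference 0.94, adjusted p = 0.045). Its arrays in ethanol were at 7.27, 7.08, 7.25 and 6.70 in siCoCoA, against 8.67, 8.79, 9.03 and 8.64 in siCCAR2, so the gap of −1.71 in ethanol narrowed to −0.77 in dex. The calls of EDN2, BCORL1, TUBA3C and CKB were lost in 17 or more of the alternatives each, the cause of which was not tested.

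Genes that dex changed at least 2-fold in siNS cells, chosen on arrays outside the comparison, show how the hormone response stood under both depletions. The spread of each gene was estimated from all 40 arrays, for the choice and for the calls alike. The shares called are therefore not a fully independent comparison with all genes. Dex raised 182 such genes (1.72% of all genes) in siNS cells. The response was called in the same direction for 177 of them in siCoCoA and 171 in siCCAR2 cells, with median responses of 1.31 and 1.44. Between the depletions in dex, 38 of the 182 were higher (20.9%, against 10.9% of all genes) and 19 lower (10.4%, against 11.2%) in siCoCoA, with a median of 0.19. In ethanol 49 of them were higher and 9 lower, where 12.2% of all genes were called higher and 8.63% lower. The 63 dex-lowered genes (0.594% of all genes) were called in the same direction in 59 cases in siCoCoA and 56 in siCCAR2 cells, with median responses of −1.01 and −1.08. Of these, 26 were higher (41.3%) and 4 lower (6.35%) in siCoCoA dex, with a median of 0.36, and in ethanol 24 were higher and 8 lower. The test of the difference in response by limma called 2 of the 182 and 0 of the 63. An unadjusted p under 0.05 was reached by 37 of the 182, with a median difference in response of −0.11 over all 182, and by 5 of the 63, against 636 of all 10608 genes.

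RGS2, a brake on G protein signalling and a known GR target, measured 11.41, 11.34, 11.65 and 11.53 in siCoCoA dex, against 9.62, 10.06, 10.14 and 9.89 in siCCAR2 dex. All siCoCoA arrays were above all siCCAR2 arrays, by 2.94-fold (1.56 ± 0.14, adjusted p = 2.60e-10). The ethanol difference was 1.42, and dex raised RGS2 by 1.83 in siCoCoA and 1.69 in siCCAR2 cells. KITLG, the ligand of the receptor KIT, was higher by 1.52 ± 0.27, as were the dex-raised PRODH and HGD and the dex-lowered CEMIP and DENND5B (1.63 ± 0.20). Among lower genes, RRAD, a small GTPase that restrains calcium channels, measured 5.66, 5.99, 5.82 and 5.64 in siCoCoA dex, against 7.16, 7.76, 6.91 and 6.94 in siCCAR2 dex. Its arrays did not overlap (−1.41 ± 0.20, adjusted p = 1.26e-06), while in ethanol both groups were near background and differed by −0.17. TSPAN18, a tetraspanin, was lower by −1.22 ± 0.23 with siCoCoA dex near background, and the neutrophil attractant CXCL5, which dex lowers, by −1.10 ± 0.18. ANGPTL4, an inhibitor of lipoprotein lipase and a known GR target, was lower by −1.02 ± 0.25, although dex raised it by 2.83 in siCoCoA and 3.13 in siCCAR2 cells.

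**Figure D3:**
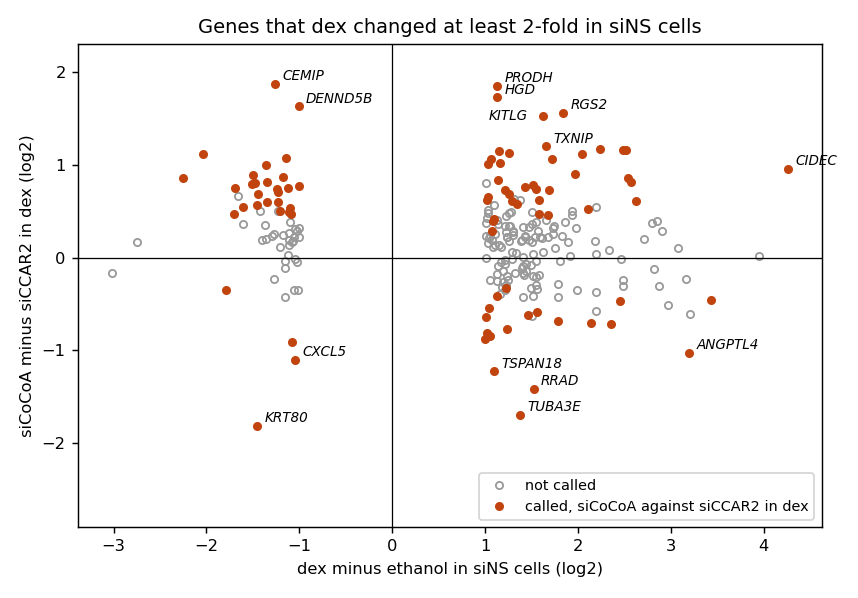
Difference between siCoCoA dex and siCCAR2 dex (vertical axis, log2) against the dex response in siNS cells (horizontal axis, log2) for the 182 genes that dex raised and the 63 that it lowered at least 2-fold there; filled points were called between the depletions. Of the 63 dex-lowered genes on the left 26 are called above 0 and 4 below, and of the 182 dex-raised genes on the right 38 are called above and 19 below.

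A list of 43 measured genes known as GR-induced gave 7 higher and 8 lower calls (34.9% called, against 22.1% of all genes), with a median of 0.09. In ethanol 12 were higher and 3 lower, where 12.2% of all genes were called higher and 8.63% lower. Leaving out siCoCoA dex array 4 or siCCAR2 dex array 1 brought the higher calls to 4. Leaving out siCoCoA dex array 1 or siCCAR2 dex array 2 brought the lower calls to 4. Beside RGS2 and ANGPTL4, TXNIP, which restrains thioredoxin and glucose uptake, was higher by 1.20 ± 0.31 (adjusted p = 0.00397), although 1 siCCAR2 array (7.69) lay above the lowest siCoCoA array (7.46). The lipid droplet protein CIDEC (0.95 ± 0.35, adjusted p = 0.0481) lost its call in 8 alternatives, and AQP3, a water and glycerol channel (0.94 ± 0.27), did without siCoCoA dex array 4.

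Mitotic genes were lower in siCoCoA dex. Of 38 genes in a list of mitotic kinases, kinesins, checkpoint and kinetochore proteins, 26 were called lower (68.4%, against 11.2% of all genes) and 0 higher by limma, 0 of them higher at an unadjusted p under 0.05, and 37 of 38 differences were below 0. The median difference was −0.68, against −0.0051 for all genes. The mean of the list per array was 8.05, 8.31, 7.87 and 7.78 in siCoCoA dex, against 8.69, 8.70, 8.41 and 8.57 in siCCAR2 dex. All siCoCoA arrays lay below all siCCAR2 arrays, and the siNS dex arrays, at 8.57 to 8.93, overlapped those of siCCAR2 only. The count of lower calls ran from 20 to 29 when single arrays were left out. In ethanol the list was also lower, with 12 calls and a median of −0.40, where 8.63% of all genes were called lower. The same 12 genes were called lower in dex. Fewer cells in mitosis and less RNA per mitotic cell cannot be told apart in bulk RNA.

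CDK1, the kinase that drives entry into mitosis, measured 8.67, 9.05, 8.71 and 8.22 in siCoCoA dex, against 9.61, 9.91, 9.50 and 9.60 in siCCAR2 dex. The groups did not overlap, and siCoCoA cells held 50.3% of the siCCAR2 level (−0.99 ± 0.15, adjusted p = 5.66e-06), with a second probe at −0.88. CENPE, the kinetochore kinesin that moves chromosomes to the spindle equator, measured 6.82, 6.72, 6.27 and 5.79 in siCoCoA dex, against 7.53, 7.56, 7.06 and 7.44 in siCCAR2 dex (−0.996 ± 0.18, adjusted p = 5.08e-05). A dimmer CENPE probe gave −0.57 in dex. In ethanol CENPE differed by −0.17 and was not called. AURKB, the kinase of the chromosomal passenger complex, was lower by −0.95 ± 0.21, cyclin A2 (CCNA2) by −0.93 ± 0.19 and the checkpoint kinase BUB1 by −0.87 ± 0.19. BUB3, the checkpoint partner of BUB1, gave 0.02 and cyclin B1 (CCNB1) −0.06, and neither was called.

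**Figure D4:**
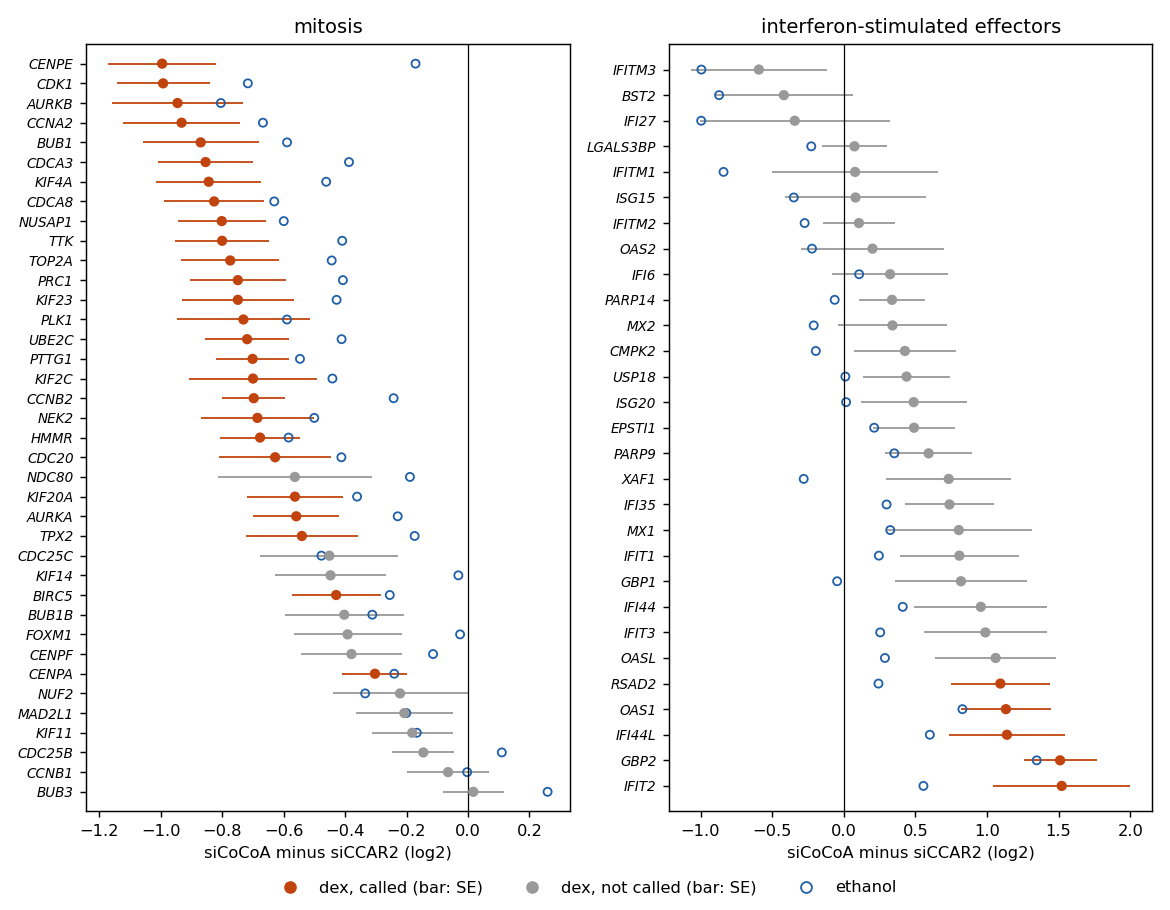
Difference between siCoCoA and siCCAR2 cells (horizontal axis, log2) for each measured member of the mitotic list (left, 38 genes) and of the interferon-stimulated effectors (right, 29 genes), in order of the dex difference; filled points with SE bars are dex, coloured where called, and open circles are ethanol. The mitotic dex points lie below 0 except BUB3 (0.02), and the interferon points spread between −0.59 for IFITM3 and 1.52 for IFIT2 with wide bars.

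Promoters of 4 mitotic genes called lower are shown because genes of this phase are known to share a pair of short promoter elements, the CCAAT box and the cell cycle genes homology region (CHR). The sequences are RefSeq windows of GRCh38.p14 from 250 bases before to 50 bases after the annotated start, on the gene's strand, with capitals marking CCAAT and the CHR letters, which are TTTGAA and TTCGAA. Both strands were searched. CDK1 is at chr10:60778081-60778380 on the plus strand, PLK1, a mitotic kinase (−0.73 ± 0.22), at chr16:23678639-23678938 on the plus strand, BUB1 at chr2:110678014-110678313 on the minus strand and CCNB2, cyclin B2 (−0.70 ± 0.10), at chr15:59104896-59105195 on the plus strand.
CDK1: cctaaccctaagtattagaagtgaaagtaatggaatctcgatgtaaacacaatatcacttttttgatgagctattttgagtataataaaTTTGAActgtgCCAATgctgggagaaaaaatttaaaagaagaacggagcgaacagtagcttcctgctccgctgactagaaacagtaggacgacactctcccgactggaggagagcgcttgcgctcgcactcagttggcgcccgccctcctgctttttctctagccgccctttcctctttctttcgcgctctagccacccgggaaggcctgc
PLK1: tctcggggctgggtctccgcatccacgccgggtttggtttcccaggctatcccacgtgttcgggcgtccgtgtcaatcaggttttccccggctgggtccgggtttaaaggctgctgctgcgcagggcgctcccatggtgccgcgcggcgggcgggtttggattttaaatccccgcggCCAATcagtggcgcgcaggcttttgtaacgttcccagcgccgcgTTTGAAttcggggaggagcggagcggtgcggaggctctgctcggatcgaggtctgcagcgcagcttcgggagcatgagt
BUB1: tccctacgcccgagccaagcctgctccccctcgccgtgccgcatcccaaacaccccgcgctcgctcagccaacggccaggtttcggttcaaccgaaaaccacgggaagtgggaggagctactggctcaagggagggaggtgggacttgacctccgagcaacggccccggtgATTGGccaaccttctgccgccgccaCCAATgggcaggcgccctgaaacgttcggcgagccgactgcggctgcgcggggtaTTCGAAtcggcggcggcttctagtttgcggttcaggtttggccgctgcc
CCNB2: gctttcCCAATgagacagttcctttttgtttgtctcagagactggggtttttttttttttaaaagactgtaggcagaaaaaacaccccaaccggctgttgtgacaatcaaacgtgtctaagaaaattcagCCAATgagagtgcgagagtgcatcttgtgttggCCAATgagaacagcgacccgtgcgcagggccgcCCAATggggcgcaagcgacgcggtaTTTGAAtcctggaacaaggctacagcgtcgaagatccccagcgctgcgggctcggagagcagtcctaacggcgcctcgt
In the CCNB2 window 4 CCAAT boxes precede the CHR letters, which begin 29 bases before the start, the same offset as in PLK1. CHR letters were present in 21 of the 31 measured mitotic genes with a window in the table (67.7%) and in 14 of the 21 called lower (66.7%), against 11.4% of 8614 tested genes with a window and 16.6% of 27305 promoters. CCAAT was present in 24 of 31 (77.4%) and in 19 of the 21 called lower (90.5%), against 37.2% of tested genes and 35.7% of all promoters. A match describes these letters and does not show a bound site.

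**Figure D5:**
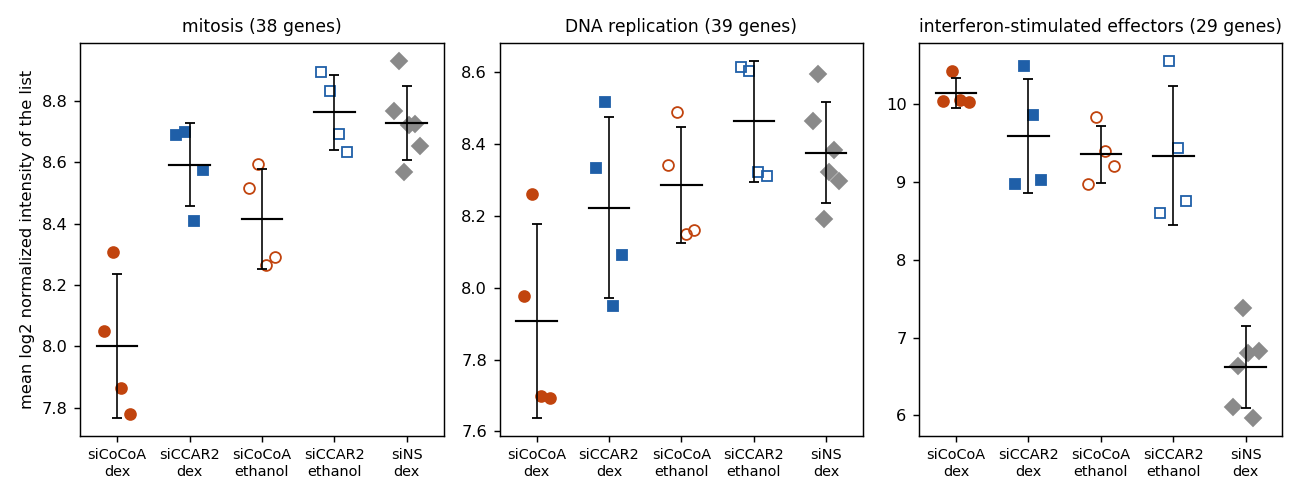
Mean log2 normalized intensity of 3 gene lists on each array (vertical axes, 1 scale a list) in siCoCoA dex, siCCAR2 dex, siCoCoA ethanol, siCCAR2 ethanol and siNS dex; each point is an array, the line is the group mean and the bar the SD. The mitotic list averages 8.0 in siCoCoA dex and 8.59 in siCCAR2 dex with no overlap. The interferon list reaches 10.43 in siCoCoA dex and 10.50 in siCCAR2 dex, in a pair chosen for like interferon levels.

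Of 39 measured DNA replication genes, 12 were called lower and 1 higher (33.3% called, against 22.1% of all genes), with a median of −0.32. The list averaged 7.91 ± 0.27 in siCoCoA dex and 8.22 ± 0.25 in siCCAR2 dex (SD, n = 4 each), and the arrays overlapped. The lower calls numbered 21 with the replicate block, 19 without siCoCoA dex array 2, 5 without siCoCoA dex array 3, 6 without siCoCoA dex array 4 or siCCAR2 dex array 2, and 7 without siCCAR2 dex array 1. They were 6 with only the 16 arrays of both siRNAs, and 7 with only the 8 arrays compared or with no filter on dim probes. MCM2, a subunit of the replicative helicase, measured 7.91, 8.15, 7.43 and 6.93 in siCoCoA dex, against 8.92, 8.61, 8.38 and 8.16 in siCCAR2 dex (−0.91 ± 0.23, adjusted p = 0.00303), and the highest siCoCoA array lay just under the lowest siCCAR2 array. CDC45, the helicase partner, was lower by −0.92 ± 0.20 and the polymerase subunit POLE2 by −0.74 ± 0.19. The helicase subunit MCM5, at −0.71 ± 0.23, lost its call in 6 alternatives. The exception was cyclin E1 (CCNE1), which drives entry into S phase. It measured 7.46, 7.74, 7.38 and 7.63 in siCoCoA dex, against 6.16, 6.50, 6.57 and 6.18 in siCCAR2 dex (1.20 ± 0.16, adjusted p = 3.57e-07), with siNS dex arrays at 7.47 to 7.83.

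Among 20 G1 regulators, 1 was higher and 5 lower, 30% against 22.1% of all genes. SKP2, the ubiquitin ligase subunit that targets CDK inhibitors, was higher by 0.86 ± 0.19, with dimmer probes at 0.26 and 0.15. The pocket protein RBL1 (−0.83 ± 0.16), CKS1B (−0.57 ± 0.12), cyclin D1 (CCND1, −0.55 ± 0.11) and CDK6 (−0.53 ± 0.10) were lower. The higher calls were 2 with the replicate block and without siCoCoA dex array 1 or siCCAR2 dex array 2. Of 27 p53 targets, 5 were higher and 3 lower (29.6%, against 22.1% of all genes) with a median of −0.13. The autophagy and death regulator TP53INP1 was higher by 1.32 ± 0.17, and PMAIP1 (NOXA) by 0.80 ± 0.21 and the kinase PLK2 by 0.72 ± 0.20. The death receptor TNFRSF10B was lower by −1.03 ± 0.12 and TRIAP1 by −0.77 ± 0.12. A dimmer TNFRSF10B probe, with means of 5.04 in siCoCoA dex and 5.05 in siCCAR2 dex, gave −0.0043.

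Interferon-stimulated effectors, the antiviral proteins that type I interferon induces, lay above siNS dex on every array of both depletions. Their arrays overlapped between the depletions, but the pair was chosen for like interferon levels, so the overlap followed from the choice and tests nothing. The calls, counts, shares and medians of interferon genes below are bound to the same choice. They are given as a description only. The mean of 29 measured effectors per array was 10.04, 10.43, 10.06 and 10.03 in siCoCoA dex, against 8.97, 10.50, 9.87 and 9.03 in siCCAR2 dex, with siNS dex at 5.97 to 7.39. The siCCAR2 arrays spread widely, and 1 of them was above every siCoCoA array. In dex 5 effectors were called higher and 0 lower by limma, 0 of them lower at an unadjusted p under 0.05. The share called was 17.2%, against 22.1% of all genes called and 10.9% called higher. The median was 0.49 and 26 of 29 differences were above 0. In ethanol 1 was called higher, where 12.2% of all genes were, and the median was 0.02. The count of higher calls was 9 with the replicate block, 2 without siCoCoA dex array 2, siCCAR2 dex array 1 or siCCAR2 dex array 4, and 10 without siCCAR2 dex array 2.

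GBP2, an interferon-induced GTPase, measured 8.08, 8.42, 8.34 and 8.67 in siCoCoA dex, against 6.26, 7.04, 7.36 and 6.81 in siCCAR2 dex. It was the effector called in both treatments (1.51 ± 0.25, adjusted p = 2.54e-05 in dex; 1.35 in ethanol), and its siNS dex arrays, at 6.30 to 7.57, overlapped those of siCCAR2. IFIT2, an RNA-binding antiviral protein, measured 11.02, 11.56, 11.19 and 10.71 in siCoCoA dex, against 9.03, 10.89, 9.42 and 9.06 in siCCAR2 dex. Its siCCAR2 array 2 lay inside the siCoCoA range, and its call (1.52 ± 0.48, adjusted p = 0.019) was lost without siCoCoA dex array 2, siCCAR2 dex array 1 or siCCAR2 dex array 4. OAS1, the oligoadenylate synthase that activates RNase L, was higher by 1.13 ± 0.31, with 3 other probes at 0.88 to 1.18. RSAD2 (viperin, 1.09 ± 0.35) and IFI44L (1.14 ± 0.40, with a dimmer probe at 0.25) lost their calls in 4 and 8 alternatives. ISG15, the ubiquitin-like modifier, gave 0.08 ± 0.49 and MX1 0.80 ± 0.51, and neither was called.

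The IFI44L promoter is shown because it carries the letters of the interferon-stimulated response element, GAAA followed by any 2 bases and a further GAAA, in duplicate (capitals, both strands searched). The RefSeq window of GRCh38.p14 is chr1:78620198-78620497 on the plus strand.
IFI44L: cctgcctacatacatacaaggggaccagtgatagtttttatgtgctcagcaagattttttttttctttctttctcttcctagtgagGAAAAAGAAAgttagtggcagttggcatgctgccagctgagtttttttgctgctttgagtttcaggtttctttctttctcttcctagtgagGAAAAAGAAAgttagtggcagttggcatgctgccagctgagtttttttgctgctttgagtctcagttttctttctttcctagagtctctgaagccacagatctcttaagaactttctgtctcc
Both copies read the same, at 164 and 73 bases before the annotated start. The letters were present in 16 of the 22 measured effectors with a window (72.7%), against 2.9% of tested genes with one, and of the 3 called effectors with a window 1 (33.3%) held them.

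Of 26 interferon signalling and RNA sensing genes, 2 were called higher and 0 lower by limma, with 2 lower at an unadjusted p under 0.05. The share called was 7.69%, against 22.1% of all genes called and 10.9% called higher. The choice of the pair for like interferon levels also bears on these counts and on those of MHC class I presentation, which are descriptive. With the replicate block the calls were 4 and 2, without siCCAR2 dex array 2 the higher calls were 4, and without siCoCoA dex array 1 the lower call was 1. RIGI, the cytosolic sensor of viral RNA, measured 8.84, 8.96, 8.95 and 8.68 in siCoCoA dex, against 7.21, 7.95, 7.40 and 6.93 in siCCAR2 dex. The groups did not overlap (1.49 ± 0.29, adjusted p = 0.000234), and siNS dex arrays were at 4.56 to 5.82. TLR3, the endosomal sensor of double-stranded RNA, was higher by 0.91 ± 0.21, with 1 siCCAR2 array above the lowest siCoCoA array. Its siCCAR2 dex mean, at 5.02, was just above the background line, and a dimmer probe gave 0.52. Of 19 genes of MHC class I presentation 1 was called, higher (5.26%, against 10.9% of all genes called higher).

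Among 29 chemokines, cytokines and NF-kB feedback genes, 8 were called higher and 3 lower in dex (37.9%, with 22.1% of all genes called). In ethanol 2 were higher and 8 lower (with 20.9% of all genes called), and the lower count in dex was 5 with the replicate block or without siCCAR2 dex array 4. The higher count was 5 without siCoCoA dex array 2 or 3, or without siCCAR2 dex array 1 or 4. CXCL6, a neutrophil attractant, was higher by 1.04 ± 0.20 in dex and 1.12 in ethanol. IL6, the acute-phase cytokine, measured 5.80, 6.14, 6.09 and 5.60 in siCoCoA dex, against 5.05, 5.47, 4.59 and 4.66 in siCCAR2 dex (0.96 ± 0.24, adjusted p = 0.00346). The siCCAR2 dex group averaged near background, and the ethanol difference was −0.03. CXCL16 was lower by −0.77 ± 0.17, with CXCL5 as above. CXCL10, an interferon-induced chemokine (1.23 ± 0.43), lost its call in 8 alternatives.

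Of 33 measured matrix genes, 3 were higher and 6 lower (27.3%, near the 22.1% of all genes), with a median of −0.18. COL5A2, a fibrillar collagen chain, measured 10.24, 10.28, 10.44 and 10.28 in siCoCoA dex, against 8.48, 8.64, 8.77 and 8.62 in siCCAR2 dex. It was 3.21-fold higher (1.68 ± 0.12, adjusted p = 5.45e-13; 1.62 in ethanol), and siNS dex arrays, at 9.26 to 9.82, lay between the groups. SERPINE2, a protease inhibitor of the matrix, was higher by 1.51 ± 0.22. COL4A1, a basement membrane collagen chain, measured 8.76, 8.73, 8.61 and 8.27 in siCoCoA dex, against 10.09, 10.30, 9.89 and 9.65 in siCCAR2 dex (−1.39 ± 0.16, adjusted p = 2.87e-08). Its partner chain COL4A2 was lower by −1.21 ± 0.17, and TGFBI, a matrix protein induced by TGF-beta, by −1.35 ± 0.13.

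COL4A1 and COL4A2, both called lower, are divergent neighbours whose annotated starts lie 127 bases apart, so their promoter windows share 226 bases. The RefSeq window of COL4A1 in GRCh38.p14 is chr13:110307108-110307407 on the minus strand, and it is shown for that shared stretch, with capitals on the annotated start base of COL4A2 (the first capital, on the opposite strand) and of COL4A1 (the second).
COL4A1: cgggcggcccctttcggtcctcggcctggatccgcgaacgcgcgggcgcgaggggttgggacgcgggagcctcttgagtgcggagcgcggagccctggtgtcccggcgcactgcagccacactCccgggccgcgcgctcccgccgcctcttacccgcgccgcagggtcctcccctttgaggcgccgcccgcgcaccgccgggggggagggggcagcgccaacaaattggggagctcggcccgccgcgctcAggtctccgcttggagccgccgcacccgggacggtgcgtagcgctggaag
No motif was searched for in this window.

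Of 22 YAP and TEAD targets, genes that respond to cell density and tension, 2 were higher and 5 lower (31.8%, against 22.1% of all genes) with a median of −0.28. The matricellular protein CCN1 measured 8.37, 8.21, 8.12 and 8.24 in siCoCoA dex, against 9.37, 9.73, 9.21 and 9.53 in siCCAR2 dex (−1.22 ± 0.12, adjusted p = 8.61e-10), with no overlap. The receptor kinase AXL (−0.98 ± 0.18, with a second probe at −0.44), the coactivator WWTR1, also called TAZ (−0.83 ± 0.13), and the kinase NUAK2 (−0.50 ± 0.11) were lower. AJUBA, a LIM protein, was higher by 1.03 ± 0.14 on its brightest probe while a second probe, near background, gave −0.29, and its call was lost when probes were averaged. Of 27 Wnt and beta-catenin genes 7 were higher and 4 lower (40.7%, against 22.1%). The secreted DKK3 (1.33 ± 0.21), the ubiquitin ligase RNF43 (0.88 ± 0.19) and the receptor FZD7 (0.78 ± 0.13, with a dimmer probe at 0.03) were higher, and the ligand WNT7B (−0.94 ± 0.24) and the receptor FZD4 (−0.85 ± 0.21) lower.

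Of 37 SR proteins and hnRNPs, which bind transcripts and guide splicing, 9 were lower and 0 higher by limma (24.3%, near the 22.1% of all genes, of which 11.2% were lower), with a median of −0.14 and 2 higher at an unadjusted p under 0.05. With the replicate block, or without siCoCoA dex array 3 or 4, 1 was higher. PTBP3, a polypyrimidine tract-binding protein, measured 10.16, 10.37, 10.16 and 10.04 in siCoCoA dex, against 11.55, 11.70, 11.29 and 11.65 in siCCAR2 dex (−1.37 ± 0.11, adjusted p = 1.71e-11; −1.29 in ethanol). HNRNPA1, an abundant splicing repressor, measured 6.55, 6.62, 6.39 and 6.44 in siCoCoA dex, against 7.38, 7.49, 7.53 and 7.58 in siCCAR2 dex (−0.998 ± 0.16, adjusted p = 8.11e-06). Neither gene's groups overlapped, and a dimmer HNRNPA1 probe gave −0.38. SRSF7 was lower by −0.44 ± 0.13, while HNRNPA3 (−0.64 ± 0.21) and PTBP2 (−0.53 ± 0.17) lost their calls in 6 and 5 alternatives. Of 39 nuclear receptors and coregulators 6 were higher and 5 lower (28.2%, against 22.1% of all genes) with a median of −0.02, counting CCAR2 and CALCOCO1, the siRNA targets. The Mediator scaffold MED14 was lower by −0.93 ± 0.14, with a dimmer probe (4.83 in siCoCoA dex, 5.01 in siCCAR2 dex) giving −0.19. The Mediator kinase module subunit MED12 was lower by −0.58 ± 0.20, a call lost in 6 alternatives. The histone methyltransferase EHMT1 (0.76 ± 0.21, with siCCAR2 dex near background), the coactivator NCOA7 (0.67 ± 0.13) and the orphan receptor NR2F1 (0.55 ± 0.15) were higher.

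Of 21 genes of SIRT1, DBC1 and acetylation, 2 were higher and 2 lower (19.0%, near the 22.1% of all genes), or 4 higher with the replicate block. Leaving out siCoCoA dex array 1 or siCCAR2 dex array 2 left 1 higher, and leaving out siCoCoA dex array 2, 3 or 4 or siCCAR2 dex array 1 or 3 left 1 lower. SIRT5, a mitochondrial desuccinylase, measured 7.72, 7.86, 7.71 and 7.87 in siCoCoA dex, against 6.52, 6.44, 6.44 and 6.64 in siCCAR2 dex. It was 2.42-fold higher (1.28 ± 0.09, limma adjusted p = 5.45e-13, and 1.30 in ethanol), with a dimmer probe at 0.67. The siNS dex arrays, at 7.66 to 7.88, lay with siCoCoA. The deacetylase SIRT2 (0.59 ± 0.18), the transcription factor FOXO1 (−0.56 ± 0.17) and the deacetylase HDAC2 (−0.35 ± 0.13) lost their calls in 2, 1 and 8 alternatives, SIRT2 without siCoCoA dex array 1 or siCCAR2 dex array 2 and FOXO1 without siCCAR2 dex array 3. Of 25 genes of selective autophagy, in which the CALCOCO1 product is a receptor, 4 were higher and 5 lower (36%, against 22.1% of all genes), CALCOCO1 itself among the lower. The higher calls were 2 without siCoCoA dex array 4 or siCCAR2 dex array 1 or 4, and the lower 3 without siCoCoA dex array 2 or 3. The receptor OPTN (0.72 ± 0.12) and the endoplasmic reticulum receptor CCPG1 (0.68 ± 0.16) were higher, and the autophagosome protein MAP1LC3A was lower (−0.79 ± 0.18). WIPI1 (0.48 ± 0.16) and MAP1LC3B (−0.43 ± 0.13) each lost their calls in 4 alternatives.

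Of 26 NRF2 antioxidant targets 9 were higher and 1 lower (38.5%, against 22.1% of all genes), with a median of 0.22. In ethanol 5 were higher and 0 lower, where 12.2% of all genes were called higher and 8.63% lower. The lower call in dex was lost with only the 16 arrays of both siRNAs, with only the 8 arrays compared and with averaged probes. Leaving out siCoCoA dex array 1 or 3, or siCCAR2 dex array 2 or 4, also lost it. GPX2, a glutathione peroxidase of epithelia, measured 13.79, 13.99, 13.89 and 14.05 in siCoCoA dex, against 12.29, 12.81, 12.51 and 12.66 in siCCAR2 dex (1.36 ± 0.13, adjusted p = 4.73e-10). The carbonyl reductase CBR3 (0.70 ± 0.17) and the cystine transporter SLC7A11 (0.67 ± 0.13) were higher, and HMOX1 (0.56 ± 0.21) and ME1 (0.46 ± 0.17) lost their calls in 9 and 10 alternatives. Of 33 ATF4 and ER stress genes 8 were higher and 8 lower (48.5%, against 22.1%). The serine and proline synthesis enzymes PHGDH (−0.89 ± 0.13) and PYCR1 (−0.78 ± 0.20), the factor ATF5 (−0.78 ± 0.17) and the chaperone DNAJB9 (−0.71 ± 0.12) were lower, and DDIT4, an inhibitor of mTORC1 that dex raises, was higher (0.73 ± 0.14).

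Of 26 sterol and fatty acid synthesis genes 3 were higher (5 with the replicate block) and 7 lower, 38.5% against 22.1% of all genes. The lower calls were 2 without siCCAR2 dex array 1, 3 without siCoCoA dex array 2 and 4 without siCoCoA dex array 3 or siCCAR2 dex array 4. HMGCS1, which makes the substrate of HMG-CoA reductase, rose by 1.03 ± 0.11 and the elongase ELOVL6 by 0.55 ± 0.08, whereas the desaturase SCD fell (−0.63 ± 0.12). INSIG1 (−0.64 ± 0.20, with a dimmer probe at −1.19) and FDPS (−0.45 ± 0.16) lost their calls in 2 and 8 alternatives, INSIG1 without siCCAR2 dex array 1 or 2. Of 20 iron genes 4 were higher and 3 lower (35%, against 22.1%), or 5 lower with the replicate block or without siCCAR2 dex array 3. The iron exporter SLC40A1 (ferroportin) was higher by 1.09 ± 0.19, with a dimmer probe at 0.60. Transferrin (TF, 0.95 ± 0.24, with siCCAR2 dex near background) and LCN2 (0.66 ± 0.16) were also higher. The iron-sensing ligase subunit FBXL5 (−0.74 ± 0.14, with a dimmer probe at −0.15) and the importer SLC11A2 (−0.57 ± 0.12) were lower. Of 35 glycolysis and hypoxia genes, 11.4% were called, against 22.1% of all genes called and 11.2% called lower. By limma 0 were higher and 4 lower, with 2 higher at an unadjusted p under 0.05. With the replicate block these were 2 and 7, and without siCCAR2 dex array 2 the lower calls were 7. SLC2A3 led them, followed by the collagen prolyl hydroxylases P4HA2 (−1.07 ± 0.15) and P4HA1 (−0.62 ± 0.14, with a probe at background at −0.15) and the phosphofructokinase PFKP (−0.47 ± 0.09). Of 53 oxidative phosphorylation genes 2 were called higher (3.77%, against 22.1% of all genes called and 10.9% called higher). The count was 0 with only the 8 arrays compared, and 1 with only the 16 arrays of both siRNAs or with array weights. Leaving out siCoCoA dex array 1 or 4, or siCCAR2 dex array 3 or 4, also gave 1. Of 11 metallothionein and zinc genes 1 was higher (9.09%, against 10.9% of all genes). Of 13 clock genes 1 was lower (7.69%, against 11.2% of all genes). Of 50 ribosomal protein genes 0 were called in either direction by limma, with 2 higher and 0 lower at an unadjusted p under 0.05 and a median of 0.02. Without siCCAR2 dex array 1 or 3 the higher ribosomal calls were 2 and 1.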

How the data were processed

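Total RNA of A549 cells was measured on 40 single-colour Illumina arrays. The values are log2 probe intensities that the authors had normalized before they were deposited; per the submitters' processing notes limma 3.14.4 was used, and the background correction, normalization method and probe filter are not given in the sources used here. Base 2 is inferred, since the values run between 4.13 and 14.3. Another 80 columns of per-sample values, named by chip position, could not be tied to samples and were not used, so chip effects could not be examined.

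Of 34469 probes, 26360 carried 1 gene symbol, 3 carried several and 8106 were not listed in the platform annotation; 26327 were matched to current RefSeq symbols by gene ID. Probes with a mean above 5 in at least 1 of 10 groups were kept (13903), and each gene was given by its brightest probe (10608 genes, 2672 of them with more than 1). Further probes are given beside only some of the named genes that have them. Group means were estimated from the 40 arrays together (limma 3.58.1, lmFit followed by eBayes, under R 4.3.3), which left 30 residual degrees of freedom, with 5.86 more from the prior. Moderated tests were 2-sided, with Benjamini-Hochberg adjustment over all genes and calls at an adjusted p under 0.05. The fit was tested on simulated data. Of 100 genes given a true log2 difference of 0.5, 43 were recovered, and of 100 given a difference of 1, 95 were. A missing call therefore does not show that a gene was unchanged.

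The comparisons were siCoCoA against siCCAR2 in dex, the same in ethanol, and the difference of the dex responses. The members, the 29 gene lists and the comparisons were chosen with earlier results of these data known. Named genes were the targets and NR3C1, the 12 largest called rises and falls in dex, the 5 largest called differences in response of each sign, the 6 largest of each sign among genes that dex changed at least 2-fold in siNS cells, and as many as 5 called members for a described list. Uncalled list members, and PLK1 and CCNB2, were named after their values were seen. Replicate numbers from the labels were checked by the correlation of same-numbered arrays' deviations from their group means. Between siCoCoA dex and siCCAR2 dex it was 0.391, 0.317, 0.119 and 0.257 for numbers 1 to 4, each above the highest value with another number. In ethanol it was 0.437, 0.168, 0.052 and 0.216, and number 3 there reached 0.079 with another number. The main fit did not pair the arrays, so its p-values and counts are unpaired. The numbers were taken to pair the arrays only in the replicate block, which is among the alternatives. Alternatives were a replicate block, fewer arrays in the fit, other filters, the mean of a gene's probes, quantile normalization, array weights and leaving out each array.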

Additional observations from a re-analysis of the deposited data

Results flagged for a closer look

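Among the groups of 4 arrays behind the named genes, 18 of 260 had an array farther from the rest than Dixon's 95% limit; chance flags about 1 in 20. In siCoCoA dex, HABP2 had 1 low array at 6.54 (others 6.83 to 6.87) and TUBA3E at 5.00 (others 5.38 to 5.43), both array 2. DCP2 had 1 high siCoCoA array at 7.17 (others 6.89 to 6.91) and COL4A2 1 low array at 5.83 (others 6.19 to 6.24), both array 3. Array 4 of siCoCoA was low for CXCL5 at 9.98 (others 10.60 to 10.67) and for WWTR1 at 8.24 (others 8.31), and high for SERPINE2 at 11.6 (others 11.14 to 11.20). INSIG1 had a high siCoCoA array at 9.92 (others 9.42 to 9.49). In siCCAR2 dex, array 2 was high for CDC45 at 9.21 (others 8.75 to 8.79) and HMGCS1 at 10.9 (others 10.53 to 10.59), and low for PHGDH at 9.33 (others 9.56 to 9.60) and MAP1LC3A at 8.56 (others 9.15 to 9.22). Array 3 of siCCAR2 was high for CKB at 9.89 (others 9.54 to 9.55) and TNFRSF10B at 10.6 (others 10.13 to 10.20), and low for SKP2 at 7.81 (others 8.71 to 8.79). Array 1 was high for WNT7B at 8.89 (others 7.94 to 8.09) and SLC7A11 at 6.33 (others 5.86 to 5.93), and array 4 low for RNF43 at 4.65 (others 5.39 to 5.52).

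The difference between the depletions itself differed between dex and ethanol by the limma interaction test for 5 genes: TUBA3E by −1.76, EDN2 by −1.57, BCORL1 by −1.24 and TUBA3C by −0.98, each more negative in dex, and CKB by 0.94.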

How the results depend on the processing

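The dex comparison, with 2346 calls, kept its count within 1.5 times under all 17 alternatives: 2897 with the replicate block, 1898 with only the 16 arrays of both siRNAs and 1899 with only the 8 arrays compared, and 1955 to 2114 when single arrays were left out. The ethanol count of 2214 likewise ran from 1733 with the 16 arrays to 2848 with the replicate block, and from 1773 to 2130 when single arrays were left out. The difference of the dex responses, with 5 calls, was the count that moved. It was 14 with the replicate block, and 1 with only the 16 arrays, with a filter line of 6, with no filter on dim probes and with array weights, and it ran from 1 to 7 when single arrays were left out. Of 132 named results that were called, 108 kept their calls in every alternative and 24 lost them in at least 1, and no called result changed sign. The uncalled NR3C1 difference of −0.13 was 0.02 without siCoCoA dex array 1, and the uncalled ZNF282 difference of 0.37 was −0.0019 without siCCAR2 dex array 4. Apart from the counts given here and beside the results, the replicate block changed no call of a named gene. Counts of other lists also moved with fewer arrays in the fit, other filters, averaged probes, quantile normalization or array weights, and only some of these are given. The causes of these moves were not tested. Signal over background limits the named calls in which 1 dex group lay near background, which are CALCOCO1, SCARNA8, BCORL1, TUBA3C and TSPAN18 for siCoCoA and HABP2, SPATA17, EHMT1, IL6, TF and NLRC5 for siCCAR2, and 765 genes that lay there in both dex groups.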

Other observations

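Single calls in small lists were picked out after their values were seen. NLRC5, the transactivator of MHC class I genes, was higher in siCoCoA dex (5.54) than in siCCAR2 dex (4.78, near background) by 0.76 ± 0.16, although it was the 1 called gene of 19 in its list. SLC39A8, a zinc and manganese importer, was higher by 1.07 ± 0.16, and the clock repressor CRY1 was lower by −0.62 ± 0.13. The respiratory complex I subunits NDUFB5 (0.36 ± 0.10) and NDUFV2 (0.42 ± 0.14) were the called members of oxidative phosphorylation in the main fit. With only the 8 arrays compared 0 members were called higher. Among markers checked for cell identity, the tight junction protein CLDN1 was higher by 1.00 ± 0.11 and the adhesion molecule EPCAM lower by −0.65 ± 0.18. CD14, a lipopolysaccharide co-receptor kept among the leukocyte markers, was higher by 1.15 ± 0.21 in dex and 1.14 in ethanol, with group means of 8.13 in siCoCoA dex and 6.98 in siCCAR2 dex.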
